A study of Mus musculus with 12 samples.

Results

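The BCL2 family sets the point at which mitochondria release the factors that start apoptosis. Its 10 members described here were taken by symbol from the gene column shared by all 12 samples, 10 of the 33641 genes listed, and all 10 were found. Bcl2l1, Bcl2, Mcl1 and Bcl2l2 are protective members. Bax and Bak1 are the pore-forming pro-apoptotic members. Bid, Bcl2l11 and Bbc3 carry only the BH3 domain by which they bind the others, and Bnip3 is a BH3-like receptor of the outer mitochondrial membrane.

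RNA was sequenced from the left ventricle (LV) and right ventricle (RV) of mice with a humanized gene for phospholamban (PLN), the brake on the calcium pump of the sarcoplasmic reticulum. R14del, the loss of arginine 14 of PLN, causes an inherited cardiomyopathy with arrhythmia. The 12 samples formed 4 groups of 3, which were LV WT-PLN, RV WT-PLN, LV R14del-PLN and RV R14del-PLN. The question addressed by the design is how the transcriptome of each ventricle differs between genotypes at an early age. All mice were labelled C57BL/6J and 12 to 14 weeks old. Both genotypes carried the human PLN coding sequence in exon 2 of the mouse gene, WT-PLN mice in its wild-type form, and R14del-PLN mice were heterozygous, with 1 wild-type and 1 R14del human copy. The lines came from 129/Sv-CP and C57Bl/6J chimeras bred to Sox2-Cre mice, whose recombinase acts in the early embryo, so the change was present in every cell type of the heart. No untargeted mouse group was analysed here.

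Protective members hold Bax and Bak1 inactive and bind the BH3-only proteins. When BH3-only proteins outnumber the free protective members, Bax and Bak1 form pores in the outer mitochondrial membrane and cytochrome c escapes to build the apoptosome. Cardiac muscle cells divide little and are lost for good when they die, so the balance of these proteins is of interest in cardiomyopathy. Transcript levels do not measure this balance in full, since much of the control of the family acts on the proteins.

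The values are TPM, transcript counts corrected for gene length and scaled to the same total in each sample, which keep no read depth, so no counting error could be attached to them. Between 17924 and 18879 genes were above 0 TPM in a sample, and mitochondrially encoded genes took between 37.3% of the TPM in LV R14del-PLN replicate 3 and 54.5% in RV R14del-PLN replicate 3. The 7 ventricular muscle cell markers summed to between 32193 and 49096 TPM and the 7 lymphocyte markers to at most 1.87 TPM. Pln, which the annotation counts as the mouse gene, was at 1801 ± 85.1 TPM in LV WT-PLN (SD, n = 3) and 1630 ± 79.5 in LV R14del-PLN, and TPM cannot tell its alleles apart. In both WT-PLN replicate 1 samples, 4 Y-linked genes were at 0.0159 to 0.191 TPM, against 3.03 to 30.6 in the other 10 samples, although male mice are stated to have been used. RV R14del-PLN replicate 3 came from another sequencing run than the other 11 samples. Values without these samples are given below where a result rests on them.

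Promoter windows are shown first for Bcl2l1, Mcl1 and Bnip3, the 3 members with an unadjusted limma p of at most 0.05 between genotypes in both ventricles. They are RefSeq sequences of build GRCm38.p6, from 250 bases before to 50 bases after an annotated transcript start, 5′ to 3′ on the strand of the gene, and windows were found for all 10 members. The 5 motifs below were searched on both strands, and capitals mark the matches: TTCNNNGAA (STAT), GTAAACA (forkhead), ACANNNTGT (steroid receptor), ACGTG (hypoxia response core) and CACGTG (E-box), which contains the hypoxia core. Bcl2l1 has 3 windows on the minus strand, of which window 1, at the 5′ end of the gene (chr2:152831679-152831978), and window 3 (chr2:152828440-152828739) are printed, with the single windows of Mcl1 (chr3:95658471-95658770, plus strand) and Bnip3 (chr7:138909457-138909756, minus strand).
Bcl2l1, window 1: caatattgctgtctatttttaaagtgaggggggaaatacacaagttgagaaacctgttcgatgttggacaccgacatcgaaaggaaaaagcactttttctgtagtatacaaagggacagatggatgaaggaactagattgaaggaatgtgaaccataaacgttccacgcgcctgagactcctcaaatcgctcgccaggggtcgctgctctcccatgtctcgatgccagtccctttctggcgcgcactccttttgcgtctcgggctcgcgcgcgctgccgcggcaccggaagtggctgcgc
Bcl2l1, window 3: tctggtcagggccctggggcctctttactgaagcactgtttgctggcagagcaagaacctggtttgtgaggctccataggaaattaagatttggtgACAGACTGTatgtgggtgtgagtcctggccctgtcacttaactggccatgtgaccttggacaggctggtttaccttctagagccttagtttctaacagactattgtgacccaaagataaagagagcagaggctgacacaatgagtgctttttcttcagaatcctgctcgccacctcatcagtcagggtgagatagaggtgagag
Mcl1: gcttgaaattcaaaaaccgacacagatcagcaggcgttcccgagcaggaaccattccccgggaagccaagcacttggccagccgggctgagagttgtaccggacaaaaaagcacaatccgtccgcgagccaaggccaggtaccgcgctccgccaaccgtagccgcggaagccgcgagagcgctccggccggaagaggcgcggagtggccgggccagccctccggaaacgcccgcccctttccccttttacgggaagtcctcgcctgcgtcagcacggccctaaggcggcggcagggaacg
Bnip3: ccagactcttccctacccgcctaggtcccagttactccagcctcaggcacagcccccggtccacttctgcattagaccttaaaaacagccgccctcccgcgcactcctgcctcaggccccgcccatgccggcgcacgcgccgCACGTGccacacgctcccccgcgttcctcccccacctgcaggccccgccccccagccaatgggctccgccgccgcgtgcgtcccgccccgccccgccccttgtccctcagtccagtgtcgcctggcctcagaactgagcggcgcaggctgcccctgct

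The windows differ in composition. G and C made up 52.3% of Bcl2l1 window 1, 49.3% of window 3, 65.7% of the Mcl1 window and 71.7% of the Bnip3 window, against a median of 52.7% over 32851 windows. Bcl2l1 window 3 holds 1 match to ACANNNTGT, which starts at position -154 from the transcript start and occurs in 6.85% of all windows. Bnip3 holds 1 CACGTG at position -108, found in 7.15% of all windows, and with it the core ACGTG, found in 19.6%. None of the 5 motifs was found in Bcl2l1 window 1 or 2 or in the Mcl1 window. Of these 3 members only Bcl2l1 passed the test between genotypes. Further members that did not pass also held matches, with 2 of CACGTG in the Bax window and 1 in a window of Bbc3. A window each of Bcl2l11 and Bbc3 held 1 of GTAAACA. The other motifs occur in 8.30% (STAT) and 3.65% (forkhead) of all windows.

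Bcl2l1 was the only member whose level passed the test between genotypes, and it was lower in R14del-PLN hearts in both ventricles. It encodes BCL-XL, a protective protein anchored in the outer mitochondrial membrane. Its gene spans chr2:152780668-152831728 on the minus strand (GRCm38). In LV, WT-PLN hearts had Bcl2l1 levels of 23.9, 29.8 and 26.3 TPM, and R14del-PLN hearts had 9.87, 11.1 and 14.6. The 3 R14del-PLN values lay below all 3 WT-PLN values. The mean fell from 26.7 ± 2.94 to 11.9 ± 2.46 TPM (SD, n = 3 each), which is 55.6% lower.

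On the log2(TPM + 1) scale the LV difference in Bcl2l1 was -1.12 (SE 0.15, 95% CI -1.44 to -0.79, limma adjusted p = 0.00402). Here a gene was called when the Benjamini-Hochberg adjusted p was at most 0.05 and the fold at least 1.5. In RV, the Bcl2l1 levels were 23.7, 25.7 and 23.8 TPM in WT-PLN hearts and 9.76, 12.8 and 10.7 in R14del-PLN hearts. The RV groups did not overlap either. The RV mean was 54.5% lower, at 24.4 ± 1.11 against 11.1 ± 1.57 TPM (SD, n = 3 each). This gave a log2 difference of -1.08 (SE 0.15, 95% CI -1.40 to -0.75, limma adjusted p = 0.00606). By p, Bcl2l1 ranked 14 of 12526 tested genes in each ventricle.

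Of the 9 members that passed the filter of a mean of at least 0.5 TPM, 1 was called in LV, where 0.519% of all 12526 tested genes were called, and 1 in RV, where 0.271% were. The genotype difference of Bcl2l1 was of like size in the ventricles, with a difference of differences of 0.04 (95% CI -0.42 to 0.50, limma adjusted p = 1.00). Leaving out both WT-PLN replicate 1 samples gave a Bcl2l1 difference of -1.19 for LV (limma adjusted p = 0.00528), and the RV value became -1.09 (limma adjusted p = 0.0118). Without RV R14del-PLN replicate 3, the sample of another run, the RV value was -1.06 (limma adjusted p = 0.0370). Without RV WT-PLN replicate 2 it was -1.04 and the call was lost (limma adjusted p = 0.0524).

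**Figure D1:**
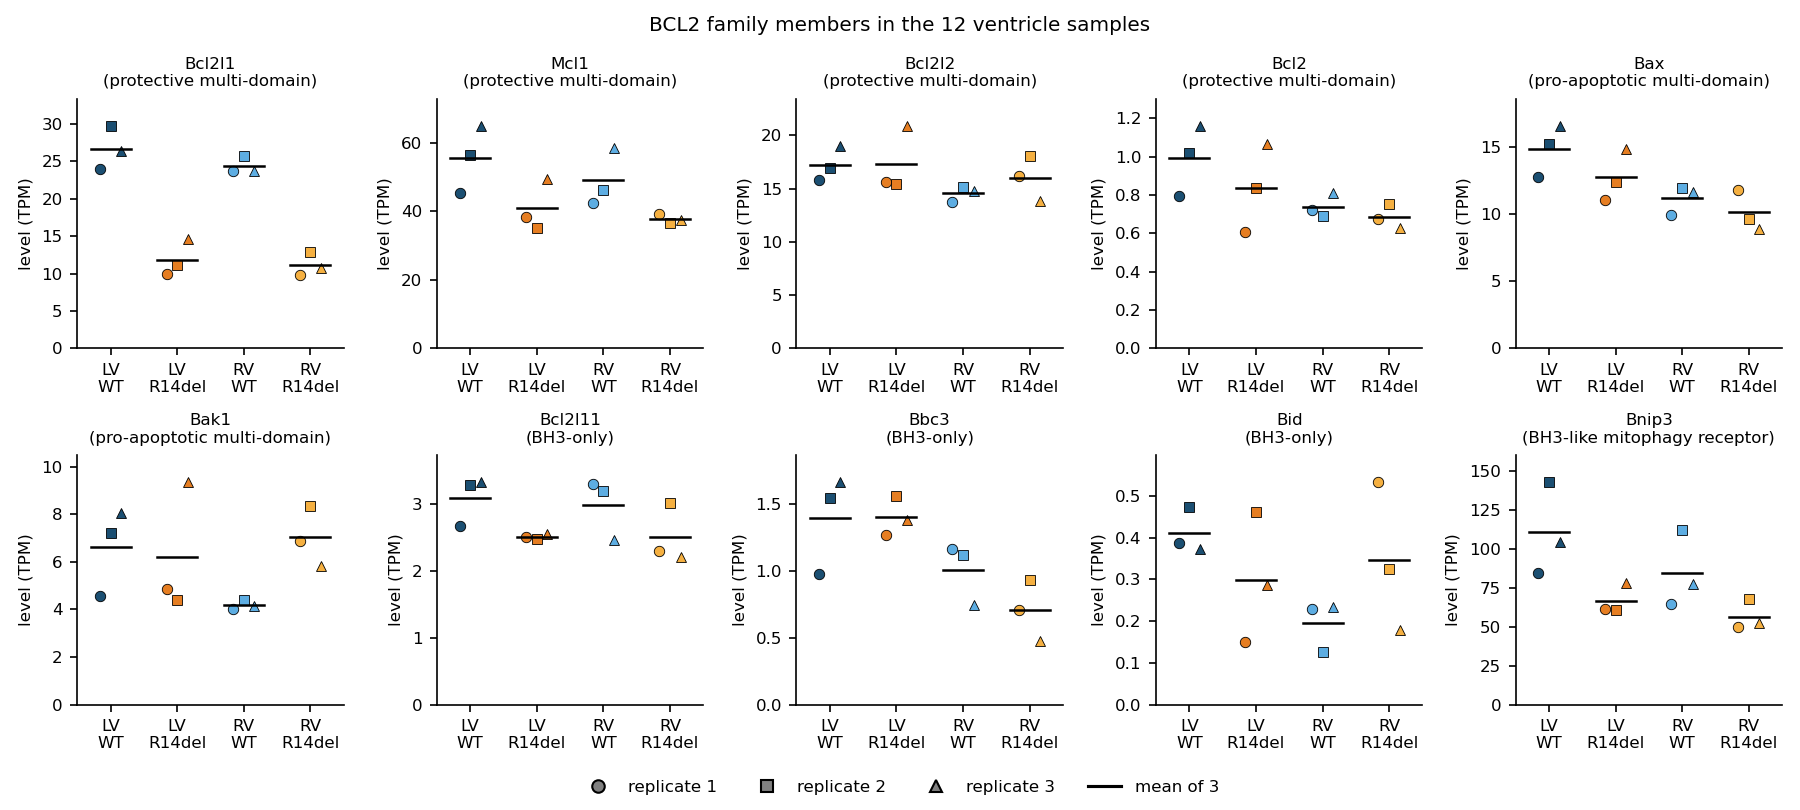
Level in TPM (y axis, linear from 0) of each of the 10 members in the 4 groups of 3 samples (x axis), with symbols for replicate numbers and a bar at the mean. Bcl2l1 shows 6 WT-PLN values between 23.7 and 29.8 TPM and 6 R14del-PLN values between 9.76 and 14.6, while the groups of most other members overlap. LV and RV values of a genotype may come from the same hearts.

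Between genotypes, red cell markers differed in the same direction as Bcl2l1, although none was called. The 6 markers, which are 4 globin genes, Alas2 and Slc4a1, summed to 2088 to 2316 TPM in LV WT-PLN, 1093 to 2142 in LV R14del-PLN, 1461 to 1736 in RV WT-PLN and 956 to 1368 in RV R14del-PLN. The LV sums overlapped between genotypes, and the RV sums did not. Single markers had lower R14del-PLN ranges without overlap for 3 of 5 tested in LV and 4 of 5 in RV. Of all tested genes, 11.0% in each ventricle had ranges that did not overlap, in either direction. Of the 5 tested, 4 in LV and 3 in RV were lower at an unadjusted p of at most 0.05, and no marker was listed at 0 in any sample. For LV, 9.60% of the 12526 genes had a p this low in either direction, and for RV the share was 6.22%. Alas2, the heme synthesis enzyme of red cell precursors, had a Pearson correlation of 0.85 with Bcl2l1 over the 12 samples and 0.87 with group means removed. For Hba-a1 these were 0.81 and 0.46, and for Hbb-bs 0.80 and 0.65. The family members Bak1 and Bnip3, which are not red cell markers, reached 0.80 and 0.76 with group means removed. All points share the TPM scaling. Between ventricles the red cell list was lower in RV, with a median of -0.40 in each genotype. All tested genes had medians of -0.17 in WT-PLN and -0.08 in R14del-PLN, and Bcl2l1 differed by -0.12 and -0.08. The LV and RV ranges did not overlap for 5 of 5 markers in WT-PLN, against 26.1% of all tested genes. In R14del-PLN this was 0 of 5, against 9.98%. The part of red cell RNA in the Bcl2l1 values was not tested. In bulk tissue, fewer cells of a type and less RNA per cell cannot be told apart.

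Among the other protective members, Mcl1 came nearest to the threshold. Mcl1 is a short-lived protective protein that heart muscle is known to depend on. In LV, Mcl1 levels were 45.3, 56.6 and 65.1 TPM in WT-PLN hearts and 38.3, 35.3 and 49.6 in R14del-PLN hearts. The LV groups overlapped through R14del-PLN replicate 3. The log2 difference in LV was -0.43 (SE 0.17, 95% CI -0.79 to -0.07, limma adjusted p = 0.398). In RV, Mcl1 levels were 42.6, 46.2 and 58.6 TPM in WT-PLN hearts against 39.3, 36.6 and 37.4, and these groups did not overlap. Its log2 difference in RV was -0.36 (SE 0.17, 95% CI -0.72 to -0.0002, limma adjusted p = 0.803). The unadjusted limma p for Mcl1 was 0.0222 in LV and 0.0499 in RV, so neither difference passed the adjustment over all genes. Without RV WT-PLN replicate 3, the highest of its group, the RV difference in Mcl1 was -0.23.

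Bcl2l2, which encodes the protective protein BCL-W, was between 13.7 and 20.9 TPM over the 12 samples. Its log2 difference between genotypes was -0.003 in LV (95% CI -0.31 to 0.30) and 0.12 in RV (95% CI -0.18 to 0.43). Bcl2, the founding protective member, was low in these hearts, between 0.605 and 1.16 TPM. Its values were -0.12 in LV (95% CI -0.38 to 0.14) and -0.05 in RV (95% CI -0.31 to 0.22). Neither gene passed the test. In WT-PLN hearts Bcl2l1 made up 26.7% ± 2.68 of the summed protective TPM in LV and 27.6% ± 2.93 in RV (SD, n = 3 each). In R14del-PLN hearts it made up 16.7% ± 1.22 and 16.9% ± 1.99.

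The pore-forming members did not pass the test in either ventricle. Bax levels ranged from 8.92 to 16.6 TPM over all samples, with log2 differences of -0.21 in LV (95% CI -0.53 to 0.11) and -0.14 in RV (95% CI -0.46 to 0.19). Bak1 was apart between genotypes in RV but not in LV. In RV, Bak1 levels were 4.02, 4.40 and 4.13 TPM in WT-PLN hearts and 6.89, 8.36 and 5.82 in R14del-PLN hearts. All 3 R14del-PLN samples were above all 3 WT-PLN samples. The log2 difference was 0.62 (SE 0.24, 95% CI 0.11 to 1.13) with an unadjusted p of 0.0212 and a limma adjusted p of 0.630.

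In LV, Bak1 levels were 4.57, 7.21 and 8.06 TPM in WT-PLN hearts and 4.86, 4.37 and 9.36 in R14del-PLN hearts, which overlapped fully. The LV log2 difference was -0.12 (SE 0.24, limma adjusted p = 0.930). The difference between the ventricles in the Bak1 genotype effect was 0.73 (95% CI 0.01 to 1.46), with an unadjusted p of 0.0468 and a limma adjusted p of 1.00. Exons of Bak1 overlap those of Ggnbp1 on the opposite strand, which averaged 21.9 TPM. The library was stranded, but whether the counting used strand is not given in the sources used here, so reads of the pair may be mixed. Ggnbp1 differed between genotypes by -0.08 in RV, opposite in sign to Bak1.

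The 3 BH3-only members were at low levels and none was called. Bcl2l11, which encodes BIM, was between 2.22 and 3.34 TPM. Its 3 LV R14del-PLN values of 2.48 to 2.55 TPM lay below the LV WT-PLN values of 2.67 to 3.34, with a log2 difference of -0.22 (95% CI -0.51 to 0.07, limma adjusted p = 0.654). In RV the Bcl2l11 groups overlapped, at -0.18 (95% CI -0.47 to 0.11). Bbc3, which encodes PUMA, a target of p53, was between 0.479 and 1.67 TPM, with differences of 0.01 in LV and -0.24 in RV (95% CI -0.56 to 0.08). Bid, the link from death receptors to mitochondria, averaged 0.313 TPM and was below the filter. In a fit of all 22948 genes above 0 in any sample, Bid differed by -0.13 in LV and 0.16 in RV, and its groups overlapped in both. Exons of Bid overlap those of Bcl2l13 on the opposite strand, which averaged 23.9 TPM, so the low Bid values are uncertain.

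Bnip3 had the highest level of the 10 members, with a mean of 79.5 TPM over the 12 samples. It is a hypoxia-induced receptor that marks mitochondria for removal by autophagy and can promote cell death. In LV, Bnip3 levels were 84.2, 142.9 and 104.1 TPM in WT-PLN hearts and 61.1, 60.6 and 78.1 in R14del-PLN hearts. The LV groups did not overlap. The log2 difference was -0.70 (SE 0.22, 95% CI -1.18 to -0.22), with an unadjusted p of 0.00763 and a limma adjusted p of 0.272.

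In RV, Bnip3 levels were 64.6, 111.8 and 77.3 TPM in WT-PLN hearts against 49.5, 67.5 and 52.0. The RV groups overlapped through WT-PLN replicate 1 and R14del-PLN replicate 2. The RV difference was -0.55 (SE 0.22, 95% CI -1.03 to -0.08, limma adjusted p = 0.675). In both ventricles the highest Bnip3 value was in WT-PLN replicate 2, where Gm16439, a processed pseudogene 98.9% identical to Bnip3 over its whole length, was listed at 0. Gm16439 was between 4.69 and 12.5 TPM in the other 10 samples, so Bnip3 levels are uncertain to the extent that the counting split reads between the copies. Without LV WT-PLN replicate 2 the LV difference in Bnip3 was -0.50, and without RV WT-PLN replicate 2 the RV difference was -0.34.

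**Figure D2:**
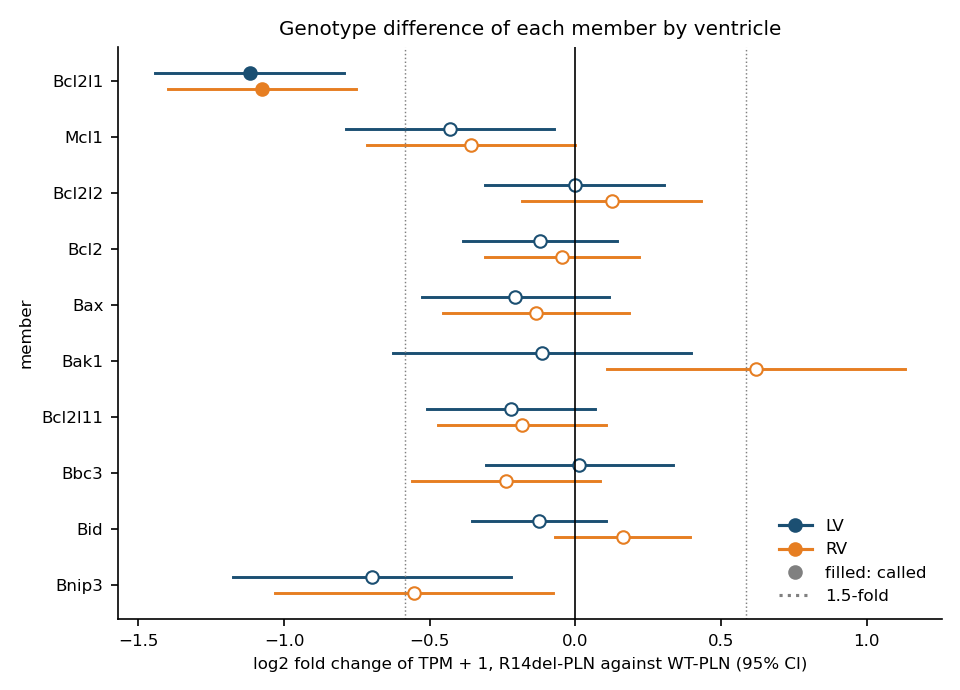
Log2 fold change of TPM + 1 between R14del-PLN and WT-PLN hearts (x axis) for each member (y axis), in LV (blue) and RV (orange), with 95% confidence intervals from limma. The filled points, Bcl2l1 at -1.12 and -1.08, are the members called, and dotted lines mark a fold of 1.5.

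Counted over the family, 3 of the 9 tested members had an unadjusted p of at most 0.05 in LV (Bcl2l1, Bnip3 and Mcl1), where 9.60% of all tested genes did. In RV there were 4 (the same 3 and Bak1), against 6.22% of all tested genes. Group ranges did not overlap for 3 of 9 members in LV (Bcl2l1, Bcl2l11 and Bnip3) and 3 of 9 in RV (Bcl2l1, Mcl1 and Bak1), against 11.0% of all tested genes in each ventricle. The median log2 difference of the 9 members was -0.21 in LV, beside -0.09 over all tested genes, and -0.18 in RV, beside -0.003. These counts and medians describe the members and are not a test of the family.

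With Bnip3 set aside, the summed protective members outweighed the summed pro-apoptotic members in every sample. Pro-apoptotic genes outside the members, such as Bad (mean 10.5 TPM) and Bnip3l (50.2 TPM), were not summed. Nor were further protective genes such as Bcl2a1b (0.358 TPM). Summed over Bcl2l1, Bcl2, Mcl1 and Bcl2l2, the protective TPM was 101 ± 13.2 in LV WT-PLN and 71.1 ± 13.1 in LV R14del-PLN. The RV sums were 88.8 ± 8.67 TPM for WT-PLN hearts and 65.6 ± 2.88 for R14del-PLN hearts (SD, n = 3 each). The sum over Bax, Bak1, Bid, Bcl2l11 and Bbc3 was 26.4 ± 4.50 and 23.2 ± 4.61 TPM in LV, and 19.6 ± 1.11 and 20.7 ± 2.71 in RV, in the same order of genotypes. Both pairs of pro-apoptotic sums overlapped, as did the LV protective sums.

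The ratio of the protective to the pro-apoptotic sum was 4.02, 3.76 and 3.71 in LV WT-PLN hearts and 3.25, 2.94 and 3.03 in LV R14del-PLN hearts. It was 4.32, 4.21 and 5.09 in RV WT-PLN hearts and 2.96, 3.06 and 3.55 in RV R14del-PLN hearts. All 6 R14del-PLN values were below all 6 WT-PLN values. LV and RV samples of the same number may share a heart, so these need not be 6 independent hearts per genotype. The values are a description without a test, because Bcl2l1 itself is part of the sum. With Bcl2l1 left out, the ratio averaged 2.81 ± 0.109 in LV WT-PLN and 2.56 ± 0.170 in LV R14del-PLN, where the groups overlapped. In RV it averaged 3.29 ± 0.489 and 2.65 ± 0.255, and the lowest WT-PLN value of 2.98 was just above the highest R14del-PLN value of 2.94. With Bnip3 counted as pro-apoptotic, the ratio was 0.752 ± 0.122 and 0.790 ± 0.0228 in LV, and 0.881 ± 0.192 and 0.859 ± 0.0864 in RV, and the genotypes overlapped. That ratio was 0.612 to 1.01 over the 12 samples and above 1 only in RV WT-PLN replicate 3, so with Bnip3 the pro-apoptotic sum was the larger in all others. Counting Bnip3 among the pro-apoptotic genes therefore removed the separation of the genotypes in this ratio.

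Ratios of single pairs differed in how far the genotypes were apart. Bcl2l1 exceeded Bax in every WT-PLN sample, with Bcl2l1 to Bax ratios of 1.58 to 1.95 in LV and 2.04 to 2.38 in RV. In R14del-PLN hearts the ratio was 0.893 to 0.982 in LV, so the listed Bax level exceeded that of Bcl2l1 in all 3, and 0.824 to 1.32 in RV. Exons of Bax overlap those of Gm45808 on the same strand, which averaged 1.23 TPM. The order of such close levels is therefore uncertain. Bcl2l1 to Bak1 averaged 4.21 ± 0.985 and 2.04 ± 0.488 in LV, and 5.83 ± 0.0758 and 1.60 ± 0.218 in RV. Mcl1 to Bax overlapped between genotypes in RV, at 3.85 to 5.03 and 3.31 to 4.19. In LV it was 3.55 to 3.92 in WT-PLN hearts and 2.84 to 3.47 in R14del-PLN hearts.

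**Figure D3:**
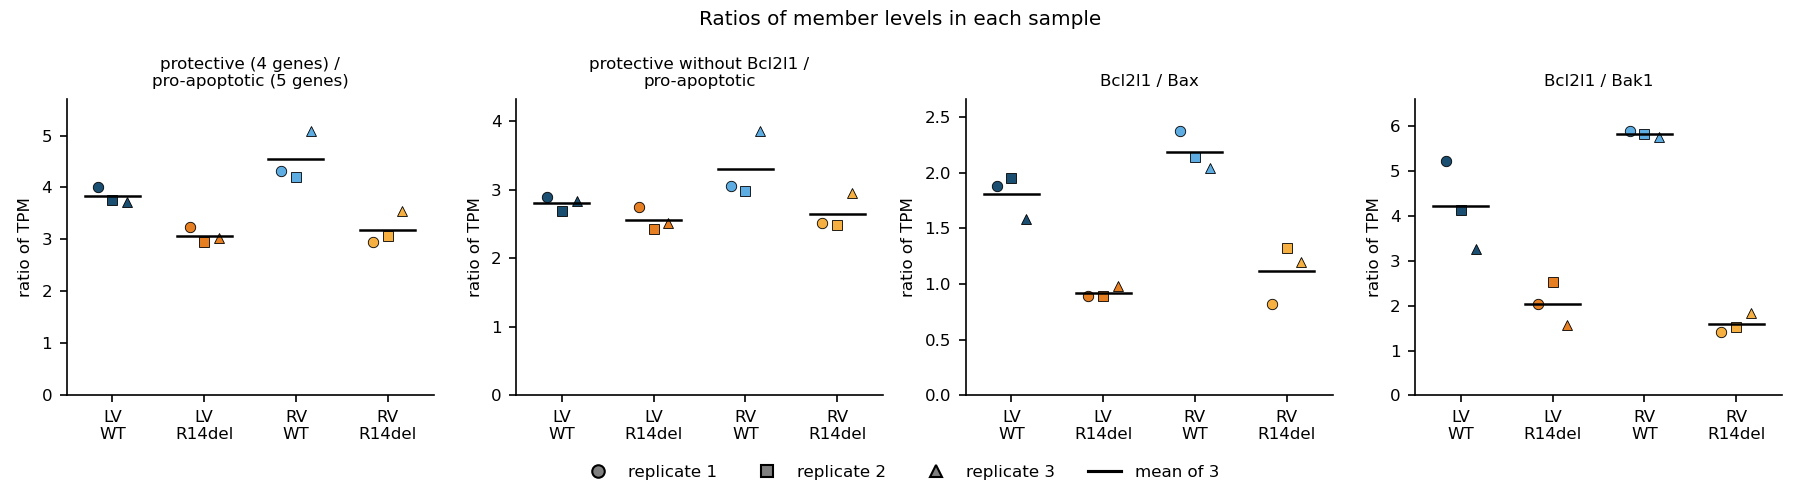
Ratios of TPM (y axes, linear from 0) in each of the 12 samples by group (x axis), with replicate symbols and a bar at the mean of 3. The first panel shows 6 WT-PLN ratios from 3.71 to 5.09 above 6 R14del-PLN ratios from 2.94 to 3.55, and the second shows the same ratio without Bcl2l1, where the LV groups overlap. LV and RV ratios of a genotype may come from the same hearts.

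Between ventricles of one genotype no member was called. In WT-PLN hearts 0 of 9 tested members were called (limma), with 0 of all 12526 genes (0%), and 2 of 9 had an unadjusted p of at most 0.05, where 14.5% of all genes did. These were Bax, lower in RV by -0.38 on the log2 scale (95% CI -0.70 to -0.06, limma adjusted p = 0.305), and Bak1, lower by -0.53 (95% CI -1.04 to -0.01, limma adjusted p = 0.336). The LV and RV ranges of 3 of the 9, Bak1, Bax and Bcl2l2, did not overlap, where those of 26.1% of all tested genes did not. All 9 members were below 0, but the median over all tested genes was -0.17 in this comparison, and quantile normalization moved that median to 0.01. With the replicate number within genotype as a block, 12 of all genes and 0 members were called (limma). Relative to that shift, Bcl2l1, at -0.12, stood above the median gene and Bax and Bak1 below it.

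In R14del-PLN hearts 0 of 9 members were called between ventricles (limma), with 0% of all genes, and 1 of 9 had an unadjusted p of at most 0.05, where 6.57% of all genes did. This was Bbc3, with 1.27, 1.56 and 1.38 TPM in LV and 0.706, 0.934 and 0.479 in RV. Its groups were the only ones of the 9 that did not overlap, against 9.98% of all tested genes, with a log2 difference of -0.50 (95% CI -0.82 to -0.18, limma adjusted p = 0.711). For the difference between ventricles in the genotype effect, 0 of 9 members were called (limma), with 0% of all genes, and 1, Bak1, had an unadjusted p of at most 0.05, where 1.01% of all genes did. In level, Bcl2l1 was ordered LV WT-PLN, RV WT-PLN, LV R14del-PLN and RV R14del-PLN. Its neighbours within a genotype overlapped, with log2 differences of -0.12 (limma adjusted p = 0.675) and -0.08 (limma adjusted p = 0.999).

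Other family and pathway genes gave few calls. Of 22 further BCL2 family genes, 21 were above 0 in a sample, 13 were tested and none was called in either ventricle (limma). In LV, Bik had an unadjusted p of at most 0.05, and in RV none did. Bik, a BH3-only gene, had LV levels of 1.36, 1.53 and 0.938 TPM in WT-PLN hearts and 1.85, 1.81 and 2.29 in R14del-PLN hearts, with a log2 difference of 0.40 (limma adjusted p = 0.487). Bag1, a co-chaperone that binds BCL2, had the highest mean of this list, 114.1 TPM, with differences of -0.06 in LV and 0.05 in RV. The list median was -0.08 in LV and 0.03 in RV.

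Downstream of the mitochondria, 21 of 22 apoptosome and caspase genes were tested and none was called (limma). Apaf1, the scaffold of the apoptosome, was 1.42 ± 0.283 TPM in LV WT-PLN and 0.990 ± 0.146 in LV R14del-PLN. Its groups did not overlap in LV, with a log2 difference of -0.28 (unadjusted p = 0.0345, limma adjusted p = 0.460). In RV it differed by 0.09. Vdac1, the most abundant gene of this list at 541 TPM, forms a channel of the outer membrane and differed by -0.05 in LV and -0.01 in RV. The list median was -0.06 in LV and 0.05 in RV.

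All 8 death receptor genes were tested and none was called (limma). Ripk1, a kinase that relays death receptor signals, had LV levels of 2.36, 3.05 and 3.51 TPM in WT-PLN hearts and 1.44, 1.89 and 2.32 in R14del-PLN hearts. The groups did not overlap, at a log2 difference of -0.47 (unadjusted p = 0.0126, limma adjusted p = 0.320). Tnfrsf12a had the highest mean of the list, 27.4 TPM, with differences of -0.001 in LV and -0.02 in RV. The medians of the 8 genes were -0.10 and -0.01.

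Of 22 regulators of BCL2 family genes, all were tested and 1 was called, Sesn1, which was lower in both ventricles. Sesn1 encodes a stress-induced inhibitor of mTORC1 signalling and is a target of p53 and FOXO factors. Its levels were 70.2, 74.1 and 76.7 TPM in LV WT-PLN hearts and 41.5, 39.1 and 50.1 in LV R14del-PLN hearts, with no overlap. In RV they were 65.0, 68.3 and 72.8 TPM in WT-PLN hearts against 43.5, 41.2 and 39.0. The LV log2 difference was -0.75 (SE 0.12, limma adjusted p = 0.0120), and that of RV was -0.72 (SE 0.12, limma adjusted p = 0.0168). The LV call was lost without WT-PLN replicate 2 or 3 or R14del-PLN replicate 1 or 2 of LV (limma adjusted p up to 0.0763). The RV call was lost without WT-PLN replicate 2 or 3 or R14del-PLN replicate 2 or 3 of RV (limma adjusted p up to 0.108). A fit of only the 6 samples compared lost both calls (limma adjusted p = 0.0577 and 0.0553).

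Foxo3, a forkhead factor known to act on Bcl2l11 and Bbc3, did not pass in the chosen fit. Its levels were 17.8, 20.4 and 22.4 TPM in LV WT-PLN hearts and 12.2, 12.3 and 15.5 in LV R14del-PLN hearts. In RV they were 21.0, 19.9 and 26.6 TPM against 13.5, 15.2 and 12.9. Neither ventricle showed overlap, with log2 differences of -0.57 (limma adjusted p = 0.142) and -0.65 (limma adjusted p = 0.103). With quantile normalization the RV difference was -0.63 and passed (limma adjusted p = 0.00151). Sesn1 (chr10:41809935-41908424) and Foxo3 (chr10:42181841-42276755) lie on the chromosome that carries Pln (chr10:53337667-53345987). None of the 10 members lies on chromosome 10, but a difference in strain background between the genotypes was not tested on any chromosome.

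The remaining regulators named by the rule were Foxo1, Gata4 and Ccng1. Foxo1 differed by -0.37 in LV (unadjusted p = 0.0264, limma adjusted p = 0.426) and by -0.13 in RV. Gata4, a cardiac transcription factor known to act on Bcl2l1, was 23.0 to 31.6 TPM in RV WT-PLN hearts and 33.8 to 39.5 in RV R14del-PLN hearts. Its log2 difference was 0.36 in RV (unadjusted p = 0.0373, limma adjusted p = 0.752) and 0.33 in LV, opposite in sign to Bcl2l1, with no overlap in either ventricle. Ccng1, a p53 target, had the highest mean of the list, 282 TPM, with differences of 0.15 in LV and 0.13 in RV. Trp53 itself averaged 4.65 TPM. The median of the 22 regulators was -0.02 in LV and 0.05 in RV.

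**Figure D4:**
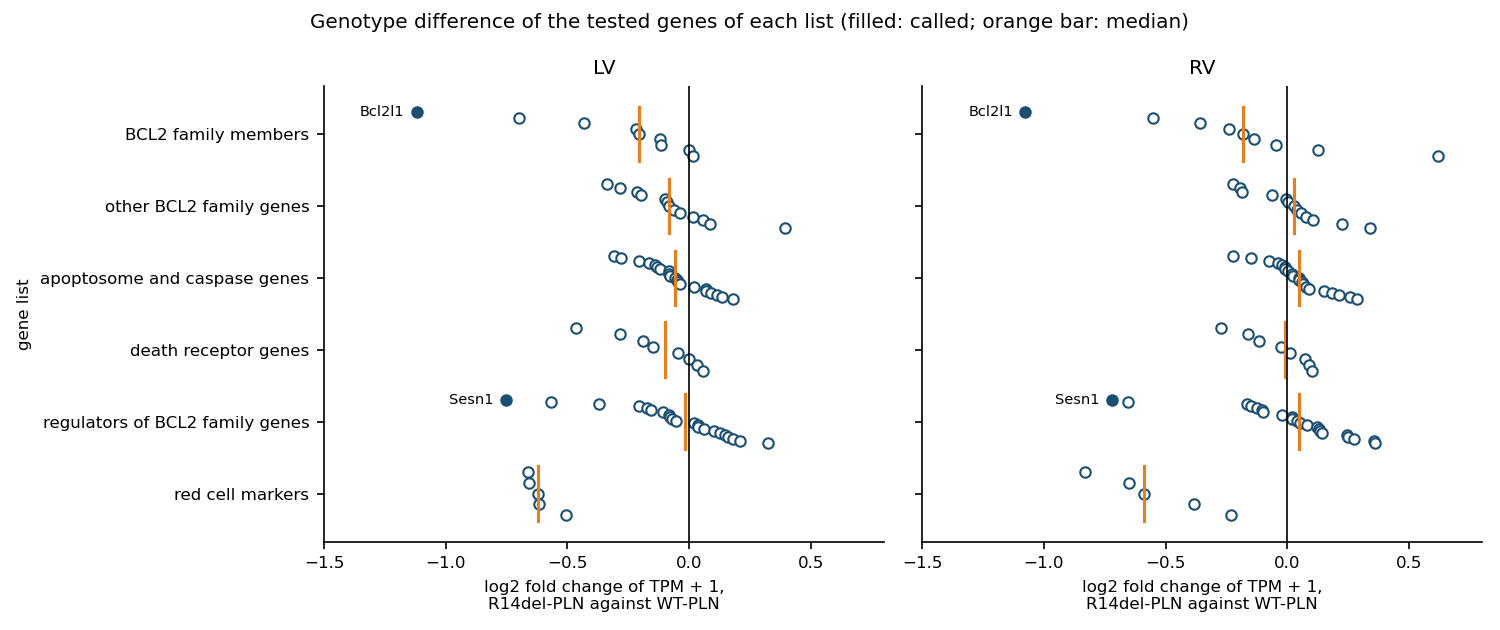
Log2 fold change of TPM + 1 between R14del-PLN and WT-PLN hearts (x axis) of each tested gene in 6 gene lists (y axis), in LV and RV, with filled points for called genes and an orange bar at the list median. Bcl2l1 and Sesn1 are the called genes, and the 5 tested red cell markers have medians of -0.62 in LV and -0.59 in RV.

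Within the family, the members differed in how closely they followed Bcl2l1 over the 12 samples. Pearson correlations with Bcl2l1 were 0.84 for Bnip3, 0.79 for Mcl1 and 0.74 for Bcl2l11, and 0.03 for Bcl2l2 and -0.15 for Bak1. With group means removed they were 0.76, 0.43, 0.52, 0.73 and 0.80 in the same order. All points share the libraries and the TPM scaling.

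Over all 12526 tested genes, those most like Bcl2l1 by Pearson correlation over 12 samples were Klf9 (0.98), Tsc22d3 (0.98), Fam107a (0.97), Herpud1 (0.97) and Per1 (0.97). With group means removed these were 0.73, 0.68, 0.59, 0.85 and 0.67. The genes were chosen by a correlation in which the genotype difference of Bcl2l1 weighs most. Their own genotype differences follow in part from that choice and are given as a description. Tsc22d3 differed by -1.20 in LV and -1.14 in RV, Fam107a by -1.31 and -1.26, and Per1, a gene of the circadian clock, by -1.23 and -1.05, and all 3 were called in both ventricles. Klf9 differed by -0.67 and -0.56, and Herpud1, which acts in degradation of misfolded proteins of the endoplasmic reticulum, by -0.88 and -0.66. Those 2 genes were called in LV and missed the threshold in RV, with limma differences between the ventricles of 0.10 (95% CI -0.26 to 0.46) for Klf9 and 0.22 (95% CI -0.23 to 0.68) for Herpud1.

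The lowest correlations with Bcl2l1 were those of Rpl34-ps1 (-0.96), Gbp2b (-0.93), P2ry13 (-0.92), Gm5900 (-0.92) and Gm9855 (-0.90). With group means removed, these became -0.26, 0.77, -0.36, 0.80 and 0.53, so 3 of the 5 turned positive. The genotype differences of these genes likewise follow in part from their choice by correlation. Rpl34-ps1, Gm5900 and Gm9855 are processed pseudogenes. Rpl34-ps1 was at 142.8 to 249.9 TPM in the 6 R14del-PLN samples and at 0 to 0.549 in the 6 WT-PLN samples, and Gm5900 and Gm9855 were listed at 0 in all 6 WT-PLN samples. Gbp2b, an interferon-induced GTPase, was at 2.52 to 3.90 TPM in R14del-PLN and at most 0.0352 in WT-PLN samples. Gm9855 (chr10:42054113-42055306) lies between Sesn1 and Foxo3 on the chromosome of Pln. Gbp2b lies on chromosome 3 with Mcl1, Rpl34-ps1 on chromosome 6 with Bid, and Gm5900 on chromosome 7 with Bax, Bbc3 and Bnip3. Whether these differences come from strain background was not tested.

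**Figure D5:**
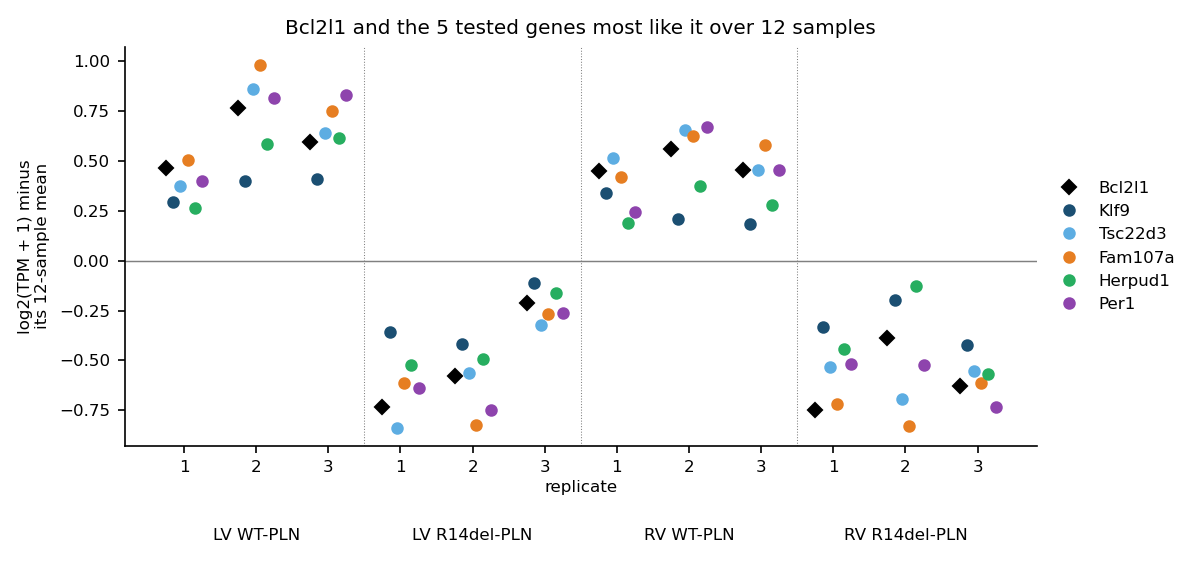
Log2(TPM + 1) of Bcl2l1 (black diamonds) and the 5 tested genes most like it (circles), each minus its own mean over 12 samples (y axis), by sample (x axis, replicates of the 4 groups). The points of all 6 genes lie above 0 in the 6 WT-PLN samples and below 0 in the 6 R14del-PLN samples. The choice of the genes by their correlation with Bcl2l1 favours this pattern.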

How the data were processed

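RNA from LV and RV of 6 WT-PLN and 6 R14del-PLN samples was made into stranded polyA libraries, per the study's methods, and reads were mapped by the authors to GRCm38 with CLC Genomics Workbench. The deposited values are TPM per gene, scaled by the authors to 1000000 per sample. The counting settings and annotation are not given in the sources used here. Members were matched by symbol. The members and gene lists were chosen with earlier results of these data known, and 1 red cell marker is not reported here. Levels were tested as log2(TPM + 1) with limma 3.58.1 in R 4.3.3 (4 group means, intensity trend, Benjamini-Hochberg over the 12526 genes whose mean reached 0.5 TPM) in 5 comparisons. The named genes were all members, list genes called or with an unadjusted p of at most 0.05 between genotypes, the highest gene of each list, and the 5 genes most and least like a called member. Promoters came from RefSeq, positions from GENCODE vM21, and copies of at least 95% identity from BLAST 2.17.0. On simulated data, the fit was checked before use. Labels give replicates 1 to 3 but no animals, so p-values measure the spread between these samples. Same-numbered LV and RV samples of WT-PLN hearts deviated together (correlations 0.658, 0.321 and 0.457), so for that comparison the number pairs the samples. In R14del-PLN hearts they were 0.389, 0.230 and 0.054, with a mean of -0.11 for unlike numbers. Deviations were taken from the mean of each group. Unlike numbers then tend to average below 0 when like numbers average above 0, so that mean is no independent baseline. All values reported are from the fit without a block. For WT-PLN the blocked count is given beside them, and for R14del-PLN and the interaction the blocked fit called 0 genes. Alternatives were other pseudocounts, filters and scalings, replicate blocks and each sample left out. The removal of both WT-PLN replicate 1 samples was chosen with the data known.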

Additional observations from a re-analysis of the deposited data

How the results depend on the processing

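Over 1665 alternative values of 65 single-gene results, 1577 kept both direction and side of the threshold, 74 (of 18 results) changed direction, 11 lost and 3 gained the call. The Bcl2l1 difference between genotypes ranged from -1.27 to -0.995 in LV (limma adjusted p 0.000811 to 0.0349) and from -1.18 to -0.995 in RV (0.000584 to 0.0524). The number of members called in RV was 0 to 1 when 1 sample was left out, and 0 only without RV WT-PLN replicate 2. Foxo3 in RV passed at -0.63 with quantile normalization, upper quartile scaling and without mitochondrially encoded genes (limma adjusted p 0.00151, 0.00162 and 0.0196).

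Changes of direction were in differences near 0, and each cause was not tested. For RV against LV in WT-PLN, quantile normalization gave 0.0753 for Bcl2l1, 0.0166 for Mcl1 and 0.118 for Bcl2l11, upper quartile scaling 0.0659, 0.0150 and 0.108, and TPM without mitochondrially encoded genes 0.0113 for Bcl2l1 and 0.0705 for Bcl2l11. In R14del-PLN, quantile normalization gave 0.00524 for Bcl2l1, 0.0111 for Mcl1, 0.00564 for Bcl2l2 and 0.050 for Bcl2l11, upper quartile scaling 0.0127 for Bcl2l1 and 0.0627 for Bcl2l11, and TPM without mitochondrially encoded genes 0.0754, 0.0569, 0.0556 and 0.128 for the 4. The Bcl2l1 interaction was -0.0701 (quantile) and -0.0532 (upper quartile). Between genotypes in LV, quantile and upper quartile scaling gave 0.104 and 0.111 for Bcl2l2, 0.0573 and 0.0595 for Bag1, 0.110 and 0.116 for Tnfrsf12a and 0.0797 and 0.0739 for Vdac1, and TPM without mitochondrially encoded genes 0.0133 for Bcl2l2 and 0.0160 for Tnfrsf12a. In RV, these 3 gave 0.0934, 0.0182 and 0.0360 for Vdac1, and the last 0.0147 for Tnfrsf12a. Without both WT-PLN replicate 1 samples, Bbc3 was -0.118 in LV and Tnfrsf12a 0.123 in LV and 0.00337 in RV.

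With 1 sample left out, ranges crossing 0 between genotypes in LV were -0.138 to 0.0699 for Bcl2l2, -0.410 to 0.0630 for Bak1, -0.118 to 0.0972 for Bbc3, -0.205 to 0.0194 for Bag1, -0.240 to 0.123 for Tnfrsf12a and -0.187 to 0.0315 for Vdac1. In RV they were -0.0402 to 0.116 for Bag1, -0.251 to 0.299 for Tnfrsf12a and -0.125 to 0.0934 for Vdac1. Between ventricles of R14del-PLN they were -0.192 to 0.0692 for Bcl2l1, -0.204 to 0.0369 for Mcl1, -0.187 to 0.0349 for Bcl2l2, -0.0497 to 0.141 for Bid and -0.106 to 0.0563 for Bcl2l11, in WT-PLN -0.120 to 0.0566 for Bcl2l11, and for the Bcl2l1 interaction -0.0707 to 0.190.

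Same-numbered samples of the genotypes correlated by -0.021, 0.156 and 0.092 in LV and 0.061, 0.219 and 0.133 in RV, and the labels tie no number to an animal. With the number within genotype as a random block, Bcl2l1 had limma adjusted p of 0.00381 in LV and 0.00576 in RV. That fit called 68 genes in LV and 35 in RV, against 65 and 34. With the number alone as a fixed block, which joins samples of different genotypes, these p were 0.00237 and 0.00378, and 119 and 62 genes were called. No member call changed with either block. All-gene counts in LV were 104 with quantile normalization (65 lower, against 53 of 65), 99 with upper quartile scaling (64 lower), 22 without a filter, 231 without both WT-PLN replicate 1 samples and 19 to 153 with 1 sample left out, and in RV 85, 88, 17, 88 and 14 to 48, with 73 in RV without mitochondrially encoded genes (42 of them lower, against 25 of 34). TPM without depth limits what low members such as Bid and Bcl2 can show.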

Other observations

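Markers of other heart cell types were given no comparison of their own above, and no marker was called in any of the 5 comparisons (limma). The 7 endothelial markers summed to 159 to 205 TPM in LV WT-PLN, 155 to 193 in LV R14del-PLN, 118 to 135 in RV WT-PLN and 122 to 157 in RV R14del-PLN. In WT-PLN hearts 5 of the 7 were lower in RV than in LV at an unadjusted p of at most 0.05, with a list median of -0.50, where 14.5% of all tested genes had such a p in either direction and their median was -0.17. In the genotype comparisons the median of the endothelial list was -0.08 in LV and 0.01 in RV.

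Atrial muscle markers had summed levels of 270 to 1355 TPM in LV WT-PLN, 173 to 355 in LV R14del-PLN, 117 to 926 in RV WT-PLN and 69.0 to 556 in RV R14del-PLN. Of the 6 atrial markers tested, 2 were lower in LV R14del-PLN hearts and 1 in RV R14del-PLN hearts at an unadjusted p of at most 0.05. In LV 9.60% of all tested genes had such a p in either direction, and in RV 6.22%. The atrial list had a median between genotypes of -2.15 in LV and -0.02 in RV. For RV against LV its median was -0.65 in WT-PLN hearts and 1.48 in R14del-PLN hearts. Fibroblast markers, which include the collagen genes Col1a1 and Col1a2, had medians of -0.35 in LV and -0.17 in RV between genotypes, and 1 of 7 in LV and 0 of 7 in RV had an unadjusted p of at most 0.05. For smooth muscle and pericyte markers, the medians were -0.34 and 0.17, and for macrophage markers -0.11 and -0.03, with none at an unadjusted p of at most 0.05 between genotypes (limma). Neutrophil markers summed to at most 13.4 TPM, and Ngp and Ly6g were listed at 0 in a sample of every group. Of the 6 neutrophil markers 2 were tested, with medians between genotypes of -1.11 in LV and -0.45 in RV. In LV 1 of these 2 was lower at an unadjusted p of at most 0.05. None of the 7 lymphocyte markers was tested.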
